A study of Mus musculus with 18 samples.

Results

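Bone-marrow-derived macrophages of wild-type mice were compared under 2 stresses, low oxygen and starvation, set directly against each other without passing through the control cells. The members were the 6 wild-type samples whose titles name these conditions, 3 cultured at oxygen 1 with control feeding and 3 starved at oxygen 20, of 18 samples in the series. The contrast shares no sample with the 3 wild-type controls (oxygen 20, control feeding), which serve below only to show where each stressed group lay. Starved samples and controls of the same number lay on the same array slide. Nearness of a group to the controls thus cannot be told apart from a shared slide. The mice were male C57BL/6J animals aged 8 weeks, and femoral marrow was cultured over 7 days with M-CSF, on which macrophages depend for growth. The labels give the oxygen concentration without a unit. Whether the cells or the mice were starved, for how long, and whether samples with the same number came from the same mouse, was not stated, so the p-values measure the spread between these samples, which may be technical. The other 9 samples carried a knockout of PHD3, an oxygen-dependent prolyl hydroxylase encoded by Egln3, and the same contrast in them is given at the end.

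As background, cells sense oxygen through prolyl hydroxylases that hydroxylate the alpha subunits of HIF, the hypoxia-inducible factor, so that the von Hippel-Lindau protein can send them for degradation. When oxygen is low, HIF accumulates, pairs with ARNT and binds a short core sequence near genes for glycolysis, glucose uptake, vessel growth and matrix hydroxylation. Starvation acts through other sensors: low amino acids activate the translation factor ATF4, low sterols release the transcription factors of the SREBP family, and low growth factor signalling frees FOXO factors and slows the cell cycle. Macrophages meet both conditions in wounds, infected tissue and tumours.

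Each sample was hybridised to a single-channel Agilent array. A level here is the log2 signal of a gene's brightest probe minus the 75th percentile of its array, so that 0 is the 75th percentile. A difference is the level at oxygen 1 minus the level in starved cells, given with its standard error (SE) from limma. A gene was called when the Benjamini-Hochberg adjusted p, taken over 20812 genes, was under 0.05. On the 6 arrays, 57.7% to 60.7% of spots were well above background and none was saturated, and precision is limited by how many arrays there are. Levels across genes correlated at 0.987 to 0.991 among the oxygen 1 samples, at 0.989 to 0.994 among the starved samples, and at 0.970 to 0.977 between the groups. All 18 samples shared 1 estimate of spread.

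The cells of both groups carried macrophage markers. All 18 tested genes of the macrophage identity list were well above background in all oxygen 1 samples and 17 in all starved samples, and the summed level of the list, on the linear scale where 1 is the 75th percentile of the array, was 614 to 647 at oxygen 1, 605 to 669 in starved cells and 596 to 670 in controls. Adgre1, which encodes the macrophage surface protein F4/80, had levels of 6.77, 6.85 and 6.95 at oxygen 1 and 6.70, 6.86 and 6.62 in starved cells. Its groups overlapped and its difference was 0.13 ± 0.10 (adjusted p = 0.335). Of the list, 3 genes were higher at oxygen 1 and 6 were lower. Csf1r, the receptor for the growth factor in the medium, was 1.66-fold higher at oxygen 1, whereas the scavenger receptor Msr1 was 1.88-fold lower and the mannose receptor Mrc1 was 3.52-fold lower.

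Low oxygen and starvation left wild-type macrophages in widely different states. Of 20812 genes, 4149 (19.9%) were higher at oxygen 1 and 3787 (18.2%) were lower, 38.1% in all. Differences of at least 2-fold were called for 1406 genes higher and 921 lower at oxygen 1, and those of at least 8-fold for 127 and 16, so the largest differences lay on the side of low oxygen. The median difference over all genes was 0.004 and the median absolute difference 0.352. These percentages are the background against which the counts of each gene list are read below. At the other end, 4993 genes had a 95% interval of the difference lying within 0.5 log2 units of 0 on either side.

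Promoter sequences of 4 genes that stood far higher at oxygen 1 are shown because they carry the core that HIF recognises. They are RefSeq windows around the start of transcription, 300 bases each, on GRCm38.p6, printed 5′ to 3′ on the strand of the gene. Capitals mark ACGTG or GCGTG read on either strand, so that the core appears as CACGT or CACGC where it lies on the opposite strand, and CACGTG, an E-box, counts on both strands. Rcor2 lies at chr19:7267144-7267443 (+), Bnip3 at chr7:138909457-138909756 (-), Ppp1r3c at chr19:36736555-36736854 (-) and Slc2a1 at chr4:119108495-119108794 (+).
Rcor2: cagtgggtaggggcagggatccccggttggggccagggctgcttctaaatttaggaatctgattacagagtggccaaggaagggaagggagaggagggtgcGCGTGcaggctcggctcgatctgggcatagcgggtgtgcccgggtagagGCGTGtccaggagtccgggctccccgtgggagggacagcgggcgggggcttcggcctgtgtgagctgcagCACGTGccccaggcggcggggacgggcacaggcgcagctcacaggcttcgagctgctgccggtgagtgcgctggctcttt
Bnip3: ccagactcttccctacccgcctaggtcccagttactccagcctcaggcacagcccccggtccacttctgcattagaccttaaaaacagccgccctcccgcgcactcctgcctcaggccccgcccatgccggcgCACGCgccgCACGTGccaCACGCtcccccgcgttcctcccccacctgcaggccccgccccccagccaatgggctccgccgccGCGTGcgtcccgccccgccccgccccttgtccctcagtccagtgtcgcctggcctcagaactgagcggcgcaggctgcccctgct
Ppp1r3c: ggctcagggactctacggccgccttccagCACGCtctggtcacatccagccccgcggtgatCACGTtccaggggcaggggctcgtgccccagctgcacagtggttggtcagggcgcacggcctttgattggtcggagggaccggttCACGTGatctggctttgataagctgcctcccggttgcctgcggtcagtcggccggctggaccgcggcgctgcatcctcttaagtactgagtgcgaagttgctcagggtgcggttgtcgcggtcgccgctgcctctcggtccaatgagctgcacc
Slc2a1: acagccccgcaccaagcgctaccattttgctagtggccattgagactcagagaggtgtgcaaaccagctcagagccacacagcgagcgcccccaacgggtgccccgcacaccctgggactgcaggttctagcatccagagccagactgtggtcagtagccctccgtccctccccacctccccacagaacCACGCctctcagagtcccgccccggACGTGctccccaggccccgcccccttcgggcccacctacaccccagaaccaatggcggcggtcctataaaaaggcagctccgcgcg

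The core is common in mouse promoters, so its presence alone says little. Of 11222 tested genes with a window, 63.2% held at least 1 core, and of all 27025 genes with a window 46.7% did. In the hypoxia response list 34 of 38 genes with a window held it (89.5%), in the glycolysis list 21 of 24 (87.5%) and in the glycogen list 12 of 14 (85.7%). The share did not follow the direction of a list. Among lists mostly lower at oxygen 1 it was 12 of 19 for cholesterol synthesis (63.2%), 19 of 29 for DNA replication (65.5%), 6 of 17 for engulfment (35.3%), 15 of 21 for p53 targets (71.4%) and 13 of 13 for tRNA synthetases (100%). Autophagy genes, with 25 of 27 (92.6%), exceeded the hypoxia list. Among the 12 genes highest at oxygen 1, 5 of 7 with a window held the core (71.4%), and the window of Apln held none. The genes were not matched on base composition, and a match is a description of the letters, not a binding site. The window of Bnip3 held 5 cores, those of Rcor2 and Ppp1r3c 4 each and that of Slc2a1 2, counting both strands.

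The genes that sense oxygen or carry out the response to its lack separated the groups sharply in part of the family. Egln3, the PHD3 gene, had levels of 3.02, 2.87 and 2.85 at oxygen 1 and of -2.18, -2.35 and -2.35 in starved cells. The groups lay far apart, and the difference was 5.20 ± 0.15, or 36.8-fold (adjusted p = 1e-11). The starved samples were above the control mean of -3.44 ± 0.33 (SD, n = 3) for this gene. Egln1, which encodes the main HIF prolyl hydroxylase PHD2, was 7.19-fold higher at oxygen 1, with levels of -1.04, -0.82 and -1.02 against -3.61, -3.71 and -4.09. Vhl, whose protein tags hydroxylated HIF for destruction, was 3.45-fold higher, with levels of 2.64, 2.83 and 2.69 against 0.91, 0.88 and 1.01, and the starved samples lay around the control mean of 1.00.

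Of 10 tested genes of this family, 4 were higher at oxygen 1 and none was lower, the fourth being Hif3a, the subunit that can restrain HIF, at 2.79-fold by its brightest probe; its 3 probes gave differences from 0.26 to 1.48. The transcripts of the principal HIF subunits did not pass the test. Hif1a differed by -0.48 ± 0.25 (adjusted p = 0.144), Epas1, which encodes HIF-2 alpha, by 0.24 ± 0.09 (adjusted p = 0.0555) and Arnt, the shared partner, by 0.54 ± 0.21 (adjusted p = 0.0568). Arnt was called without starved replicate 3 (0.76, adjusted p = 0.0102), when slide entered the fit (adjusted p = 0.0149) and under other settings, Epas1 without starved replicate 2 (adjusted p = 0.0487) and Hif1a in the 6 samples fitted alone (adjusted p = 0.0382). The 2 probes of Epas1 and the 2 of Arnt disagreed in sign. Egln2, the PHD1 gene, differed by -0.17 ± 0.12 (adjusted p = 0.289) and Hif1an, the asparaginyl hydroxylase that limits HIF activity, by 0.12 ± 0.14 (adjusted p = 0.539). P4htm, a transmembrane prolyl hydroxylase, was well above background in 1 sample of each group and differed by 0.33 ± 0.23 (adjusted p = 0.270).

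**Figure D1:**
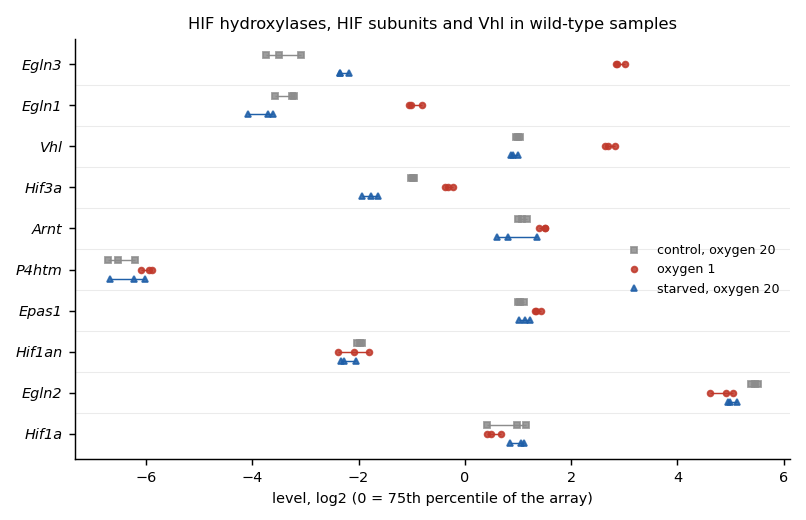
Level of each HIF hydroxylase, HIF subunit and Vhl in the 9 wild-type samples (x axis, log2, 0 is the 75th percentile of the array), with a line from the lowest to the highest sample of each group. Egln3, Egln1, Vhl and Hif3a at oxygen 1 lie to the right of both other groups, while the remaining genes lie close together.

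The 12 genes with the largest differences toward low oxygen held metabolic, signalling and matrix genes. Mgarp, which encodes a mitochondrial protein induced by hypoxia, had levels of 3.22, 3.21 and 3.39 at oxygen 1 and of -5.24, -5.89 and -5.66 in starved cells, a 468-fold difference (8.87 ± 0.32, adjusted p = 5.73e-11). Arg1, encoding the enzyme that turns arginine into ornithine and urea, had levels of 1.43, 1.46 and 1.64 against -6.25, -6.80 and -6.95. It was 290-fold higher at oxygen 1 (8.18 ± 0.47, adjusted p = 1.07e-08), and it was well above background in 1 of 3 starved samples. Gipr, the receptor for the gut hormone GIP, was 243-fold higher, with levels of 1.94, 1.72 and 1.93 against -5.95, -6.15 and -6.07. For these 3 genes the starved samples lay near the control means of -5.19, -6.96 and -5.84, and the oxygen 1 samples far above them.

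Rcor2, a corepressor that works with histone demethylase LSD1, had levels of 2.86, 2.94 and 2.84 against -3.06, -3.19 and -3.14, and was 64.4-fold higher at oxygen 1. Smtnl2 was 158-fold higher and Plod2, a lysyl hydroxylase that modifies collagen, 43.6-fold higher. Several genes had no starved sample well above background, and their fold is given as a bound against the lowest signal that was. Ppp1r3g and Ppp1r3c, which encode subunits that bring a phosphatase to glycogen, were at least 51.1-fold and at least 13.0-fold higher at oxygen 1. Apln, the peptide ligand apelin, was at least 19.5-fold higher, Mboat2, a lysophospholipid acyltransferase, at least 13.6-fold, and Foxj1, a transcription factor of ciliated cells, at least 11.1-fold. With normexp background correction the differences of Ppp1r3c, Mboat2 and Foxj1 were 1.20, 1.10 and 1.14 and not called, at adjusted p from 0.0684 to 0.0902.

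Ccn2, a matrix-associated signalling protein also known as CTGF, reached this group by another route. Its levels were 0.18, 0.01 and -0.25 at oxygen 1 and -8.49, -6.39 and -8.66 in starved cells, with controls at -0.20 ± 0.26 (SD, n = 3). The oxygen 1 samples thus lay among the controls, and no starved sample was well above background. The difference was at least 83.3-fold (adjusted p = 2.62e-08).

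The 12 genes with the largest differences toward starvation included genes of fatty acid desaturation and lengthening and chemokines. Scd1, the desaturase that makes monounsaturated fatty acids, had levels of -2.27, -2.66 and -2.26 in starved cells and of -7.77, -8.19 and -6.85 at oxygen 1, where no sample was well above background. It was at least 13.6-fold lower at oxygen 1 (adjusted p = 1.49e-07), and the controls lay between, at -5.80 ± 0.34 (SD, n = 3). Fads2, which desaturates polyunsaturated fatty acids, was at least 3.16-fold lower, and Elovl6, which lengthens fatty acids, was 8.11-fold lower, with levels of -4.51, -5.26 and -4.74 against -1.70, -1.95 and -1.81. Ccl7, a chemokine that draws monocytes, had levels of 1.46, 1.92 and 1.94 at oxygen 1 and 5.07, 5.28 and 5.05 in starved cells, a 10.3-fold difference (adjusted p = 5.33e-07). The neutrophil chemokine Cxcl5 was at least 9.28-fold lower at oxygen 1.

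The remaining genes of that group included matrix, microtubule and surface proteins. By fitted difference Mmp3, Omg, Psrc1 and Map1a came next after Scd1, at -4.20, -3.57, -3.53 and -3.44. Mmp3, a matrix-degrading enzyme, was 18.4-fold lower at oxygen 1 and well above background in 1 of 3 samples there. Psrc1, a protein of spindle microtubules, was 11.6-fold lower, with levels of -2.73, -3.56 and -2.47 against 0.78, 0.61 and 0.45. Megf10, a receptor for engulfing dying cells, was at least 4.04-fold lower, with levels of -7.03, -7.51 and -7.93 against -4.18, -4.23 and -4.05 and controls at -8.35. Omg was at least 8.52-fold lower, Map1a, a microtubule-binding protein, at least 3.89-fold, Kcnj10, a potassium channel, at least 3.30-fold, and Mgp, an inhibitor of matrix calcification, at least 3.45-fold. With normexp background correction Mgp differed by -1.09 and was not called (adjusted p = 0.0663).

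The size of these differences depended on the background correction where one group was dim. The normexp alternative adds an offset of 50 to every signal, which by construction shrinks differences of dim probes. Under it Mgarp differed by 6.11, Gipr by 4.96, Arg1 by 4.90 and Smtnl2 by 4.33, and Rcor2 kept 5.13 and Egln3 4.60. Plod2 differed by 2.84, Ccn2 by 3.54, Ppp1r3g by 2.98 and Apln by 1.41. On the starved side Mmp3 differed by -2.24, Scd1 by -2.08, Elovl6 by -1.99, Cxcl5 by -1.77 and Omg by -1.65, and Map1a, Megf10, Kcnj10 and Fads2 by -1.25 to -1.11. All of these were still called. Of other genes named here, the same setting gave 1.31 for Dapk2, 1.10 for Ciart, 1.17 for Aldh1l2, 1.54 for Egln1, 2.60 for Tubb3, 1.42 for Colgalt2, 2.57 for Col1a1, 2.50 for Ccr3, 2.02 for Clec10a, 1.08 for Hspb1 and 0.79 for Igf1r, all called.

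**Figure D2:**
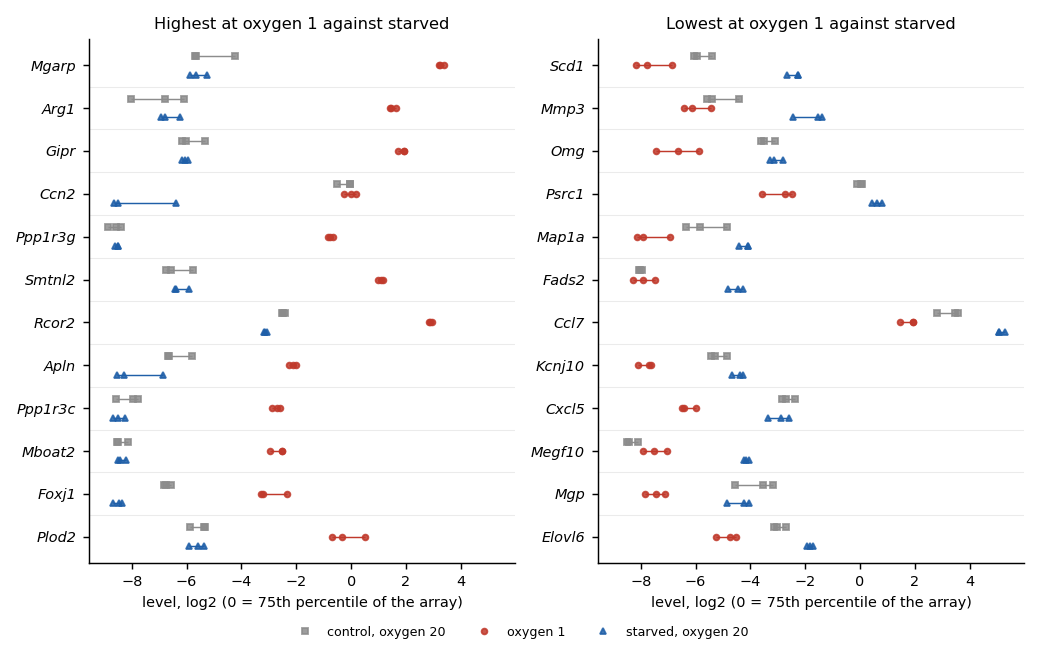
Levels in each wild-type sample of the 12 genes highest and the 12 genes lowest at oxygen 1 against starved (x axis, log2, 0 is the 75th percentile of the array), with a line from the lowest to the highest sample of a group. In the left panel most starved samples sit with the controls. Ccn2 is an exception, with levels of 0.18, 0.01 and -0.25 at oxygen 1 beside controls at -0.20. Rcor2, Apln and Foxj1 have all controls between the groups, above every starved sample. In the right panel Omg, Cxcl5 and Mgp have the starved samples near the controls and Fads2 and Megf10 have the oxygen 1 samples near them.

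Genes of the hypoxia response stood higher at oxygen 1 almost throughout. Of 46 tested, 39 were higher and 3 lower (19.9% and 18.2% over all genes), with a median difference of 2.46 against 0.004 over all genes, and 33 were at least 2-fold higher. Of the 47 genes in the list, 22 also stand in another list here, so the counts overlap. Fam162a, a mitochondrial protein, had levels of 6.78, 7.00 and 6.79 against 2.64, 2.58 and 2.55, a 19.3-fold difference (adjusted p = 1.06e-13). Ankrd37, an ankyrin repeat protein, was 25.2-fold higher and Vegfa, the main growth factor for blood vessels, 15.2-fold higher. The exceptions were Car9, a carbonic anhydrase (1.75-fold lower), Scd2, a desaturase (1.74-fold lower), and Pfkfb4, a regulator of glycolytic flux (1.37-fold lower). The calls of Scd2 and Pfkfb4 were lost with normexp background correction (adjusted p = 0.0935 and 0.107), that of Scd2 also without oxygen 1 replicate 2, and that of Pfkfb4 also without starved replicate 3.

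Glucose use followed the same side. Of 25 tested genes of glycolysis and lactate handling, 18 were higher at oxygen 1 and 2 lower (1 lower without starved replicate 3), with a median difference of 1.45. Slc2a1, the glucose transporter GLUT1 whose promoter is shown above, had levels of 6.29, 6.26 and 6.02 against 2.48, 2.41 and 2.79, a 12.4-fold difference (adjusted p = 8.96e-10). Slc16a3, which exports lactate, was 15.6-fold higher and Pdk1, a kinase that restrains the use of pyruvate in the mitochondrion, 6.38-fold higher. Tpi1, triosephosphate isomerase, was 3.79-fold higher. Eno2, an enolase, was 1.71-fold lower, with levels of -2.04, -1.88 and -1.84 against -0.93, -1.14 and -1.37, and its controls were at -2.16.

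Glycogen genes were more often higher at oxygen 1 than lower. Of 16 tested, 8 were higher at oxygen 1 and 2 lower, with a median difference of 0.48. The share lower was under the 18.2% of all genes. Gys1, glycogen synthase, was 11.3-fold higher at oxygen 1, with levels of 3.34, 3.44 and 3.42 against -0.02, 0.01 and -0.30. Pgm1, which interconverts glucose phosphates, was 6.67-fold higher, and Ppp1r3g and Ppp1r3c are given above. Pygb, a glycogen phosphorylase, was 1.82-fold lower and Phkb, a subunit of the kinase that activates phosphorylase, 1.32-fold lower. The call of Phkb was lost in the 6 samples fitted alone (adjusted p = 0.0762) and with a replicate block over them (adjusted p = 0.124).

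Genes of mitochondrial oxidation were mostly not called, except in fatty acid oxidation, and those called were more often lower at oxygen 1. Of 51 tested genes of oxidative phosphorylation, 16 were lower and 1 higher (none higher without oxygen 1 replicate 1, 2 or 3 or starved replicate 2), with a median difference of -0.18 and no member past 2-fold; quantile normalization gave 26 lower, and normexp background correction 4. Ndufb8, a complex I subunit, was 1.51-fold lower at oxygen 1, with levels of 4.83, 4.75 and 5.08 against 5.46, 5.49 and 5.49. In the tricarboxylic acid cycle, 8 of 22 genes were lower and 1 higher (none higher without oxygen 1 replicate 1 or 3 or starved replicate 1), with a median of -0.30. That list also holds cytosolic enzymes. Among them, Idh1, the cytosolic isocitrate dehydrogenase, was 2.17-fold lower and Mdh1, the cytosolic malate dehydrogenase, 1.74-fold lower. Idh1 was the only member of the list called at least 2-fold lower. In fatty acid oxidation, 11 of 19 were lower and 4 higher (1 higher without starved replicate 2). Decr1, which handles unsaturated fatty acids, was 2.22-fold lower, while Acsl1, which activates fatty acids, was 1.81-fold higher at oxygen 1.

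Mitophagy receptors, which mark mitochondria for removal, were among the higher genes, with 5 of 9 higher and 1 lower. Bnip3 had levels of 6.68, 6.55 and 7.03 against 2.58, 2.30 and 2.56, a 19.3-fold difference (adjusted p = 3.59e-11). Its relative Bnip3l was 3.64-fold higher and Pink1, the kinase that flags damaged mitochondria, 2.17-fold higher. In the general autophagy list, 11 of 33 genes were higher and 3 lower, with a median of 0.26. Rb1cc1, a scaffold of the initiating kinase complex, was 2.07-fold higher, Atg9a 1.95-fold and Atg13 1.93-fold higher, whereas Tfeb, a transcription factor for lysosome genes, was 2.03-fold lower at oxygen 1. The count of 11 was 7 without oxygen 1 replicate 2, starved replicate 1 or starved replicate 2. Lysosome genes leaned the other way, with 17 of 40 lower and 2 higher (1 higher without oxygen 1 replicate 1 or 3 or starved replicate 1 or 2; 25 lower under quantile normalization and 7 with normexp). Lipa, the lysosomal lipase, was 2.64-fold lower at oxygen 1, with levels of 2.26, 2.11 and 2.31 against 3.70, 3.72 and 3.46.

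Sterol synthesis separated the stresses in the opposite direction to glycolysis. Of 27 tested genes of cholesterol synthesis and its SREBP control, 23 were lower at oxygen 1 and 1 was higher, with a median difference of -1.60, and 18 were at least 2-fold lower. The median level of the list was -0.31, -1.68 and -0.40 in the oxygen 1 samples, 1.45, 1.24 and 1.31 in the starved samples and 0.14, -0.01 and 0.18 in the controls. The groups did not overlap, the controls lay between, and oxygen 1 replicate 2 was the lowest by more than 1 log2 unit. Without that replicate, 23 genes were lower at oxygen 1 and the median difference was -1.30. Dhcr7, which makes cholesterol from its last precursor, had levels of -2.35, -2.34 and -2.07 against 0.12, 0.15 and -0.09, a 4.97-fold difference (adjusted p = 2.21e-08). Nsdhl, a sterol demethylating enzyme, was 3.96-fold lower and Hsd17b7, a sterol reductase, 3.63-fold lower. The exception was Insig2, an endoplasmic reticulum protein that holds SREBP inactive, which was 2.09-fold higher at oxygen 1 with levels of 2.52, 2.51 and 2.37 against 1.45, 1.43 and 1.34.

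The promoter of Hmgcs1, a synthase early in the mevalonate route, is shown because it was the only window of the list with the sterol element TCACNCCAC, searched on both strands; this motif was added after the values of the list had been seen. The window is chr13:119690101-119690400 (+) on GRCm38.p6, from RefSeq, with the element in capitals.
Hmgcs1: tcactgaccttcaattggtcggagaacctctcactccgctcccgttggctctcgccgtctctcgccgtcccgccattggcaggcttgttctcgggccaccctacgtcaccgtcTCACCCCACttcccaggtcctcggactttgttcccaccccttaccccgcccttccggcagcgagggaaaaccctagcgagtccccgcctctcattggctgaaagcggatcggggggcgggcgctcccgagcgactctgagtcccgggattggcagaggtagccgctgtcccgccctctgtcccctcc
One of 19 windows is 5.26% of the list, beside 1.43% of tested genes with a window. The share was 8.33% in the glycolysis list (2 of 24) and 6.9% in the lysosome list (2 of 29). In the fatty acid synthesis list it was 0 of 11. Hmgcs1 itself had levels of 1.54, 0.67 and 1.75 at oxygen 1 and 3.10, 2.90 and 2.87 in starved cells, a 3.10-fold difference.

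Fatty acid synthesis lay on the same side, with 11 of 14 genes lower at oxygen 1 and none higher and a median of -0.88. Besides Scd1, Fads2 and Elovl6, Fads1, which desaturates polyunsaturated fatty acids, was 4.19-fold lower, with levels of -2.20, -2.19 and -2.07 against 0.06, -0.02 and -0.31. Among 11 tested targets of the liver X receptors, sensors of oxidised sterols, 4 were lower and 1 higher (2 higher without starved replicate 3). Abcg1, a cholesterol exporter, was 2.17-fold lower at oxygen 1, with levels of 3.71, 3.73 and 3.76 against 4.83, 4.92 and 4.81, and Lpcat3, a phospholipid-remodelling enzyme, was 1.80-fold lower.

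Cell division genes were lower in both stresses than in controls, and lower at oxygen 1 than in starved cells. Of 35 tested DNA replication genes, 28 were lower at oxygen 1 and none higher, with a median difference of -0.92; the median over the list was -1.59 for oxygen 1 minus control and -0.70 for starved minus control, which share the control samples. The median level of the list was -0.02, -0.84 and -0.52 at oxygen 1, 0.50, 0.51 and 0.63 in starved cells and 1.29, 1.38 and 1.46 in controls, without overlap. Pola1, a catalytic subunit of DNA polymerase alpha, was 2.81-fold lower at oxygen 1, Gins1, of the replicative helicase, 2.67-fold and Mcm2, of the same helicase, 2.55-fold. In the promoter windows, 10 of 29 genes of the list (34.5%) held the E2F element TTTGGCGC or TTTCCCGC on either strand, beside 3.13% of tested genes.

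Mitosis genes gave 23 of 39 lower at oxygen 1 and none higher, with a median of -0.64. Racgap1, needed for cytokinesis, was 2.10-fold lower by its brightest probe, and its probes gave differences from -1.07 to -0.22. Spc24 and Spc25, of the kinetochore, were 2.33-fold and 2.04-fold lower. The brakes and accelerators of the cycle were not on one side. Cdkn1b, the inhibitor p27, was 3.47-fold higher at oxygen 1, with levels of 2.15, 2.38 and 2.50 against 0.51, 0.39 and 0.74, whereas Cdkn1a, the inhibitor p21, was 2.22-fold lower and Ccnd1, cyclin D1, was 4.03-fold lower. Starved Ccnd1 levels of 3.22, 3.30 and 3.48 lay above the control mean of 2.98 ± 0.36 (SD, n = 3).

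**Figure D3:**
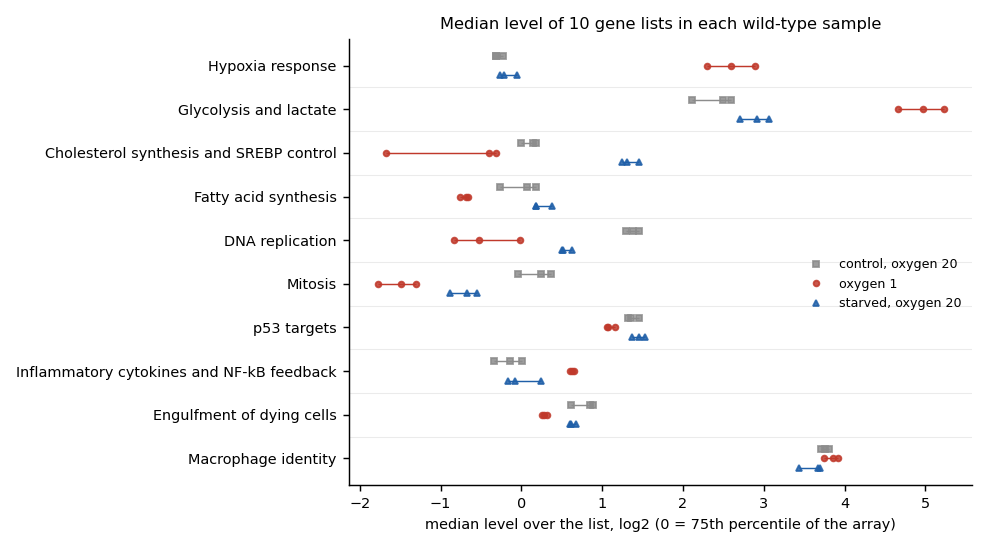
Median level of 10 gene lists in each of the 9 wild-type samples (x axis, log2, 0 is the 75th percentile of the array), with a line from the lowest to the highest sample of a group. Cholesterol synthesis runs from oxygen 1 (-1.68 to -0.31) through controls to starved (1.24 to 1.45), while for DNA replication and mitosis the order is oxygen 1, starved, controls.

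Amino acid response genes, the programme of ATF4, were mixed. Of 30 tested, 12 were higher at oxygen 1 and 4 lower, with a median of 0.27. Eif4ebp1, a repressor of translation, had levels of 5.68, 5.65 and 5.71 against 4.09, 4.24 and 4.11, a 2.90-fold difference. Aldh1l2, a mitochondrial folate enzyme, was 4.26-fold higher, Ppp1r15a, which restores translation after stress, 2.26-fold, and Vldlr, a lipoprotein receptor that is also in the hypoxia list, 5.12-fold. Phgdh and Psph, enzymes of serine synthesis, were 2.69-fold and 1.47-fold lower at oxygen 1, and the call of Psph was lost with a replicate block over the 6 samples (adjusted p = 0.0522). The starved samples did not stand above controls for this list, whose median for starved minus control was -0.45. In the windows, 8 of 25 genes (32%) held the ATF4 element TGATGNAAN on either strand, beside 3.01% of tested genes.

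Other stress lists had calls on both sides or few calls. Of 23 genes of the unfolded protein response, 7 were higher and 5 lower (3 lower without oxygen 1 replicate 1 or 2 or starved replicate 1 or 3); Ern1, a sensor of misfolded protein, was 1.77-fold higher at oxygen 1. In the heat shock list 4 of 17 were higher and none lower, and 3 were lower without oxygen 1 replicate 2. Its share called in either direction was 23.5%, beside 38.1% over all genes. Hspb1 was 3.32-fold higher; the median of that list turned from 0.11 to -0.06 under quantile normalization. Among mTORC1 inhibitors, 3 of 16 were higher and 5 lower. Ddit4, which shuts the growth kinase mTORC1 down, had levels of 4.28, 4.47 and 4.40 against 2.18, 1.84 and 2.24, a 4.91-fold difference, while Sesn1, a sensor arm of the same control, was 2.30-fold lower. In the insulin and FOXO pathway, 6 of 22 were higher and 4 lower, and Igf1r, the receptor for insulin-like growth factor, was 2.63-fold higher at oxygen 1. Ribosomal protein genes gave 17 of 39 higher and none lower with a median of 0.32, but under quantile normalization the median was -0.03 with none called, and the count of 17 was 7 without oxygen 1 replicate 1, 8 without starved replicate 2, and 11 without oxygen 1 replicate 3 or starved replicate 3.

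Survival genes were called on both sides. Of 33 pro-apoptotic genes, 11 were higher at oxygen 1 and 8 lower, with a median of 0.05. Dapk2, a death-associated kinase, had levels of -2.25, -1.90 and -1.98 against -5.43, -5.80 and -5.87, a 12.6-fold difference (adjusted p = 1.53e-07). Fas, a death receptor, was 2.25-fold higher and Casp6, an executioner caspase, 2.22-fold higher, whereas Htra2, a mitochondrial protease that frees caspases, was 2.02-fold lower and Bbc3, the BH3-only protein PUMA, 1.83-fold lower. Of 17 anti-apoptotic genes, 9 were higher and 3 lower. Ier3, an early response survival gene, was 10.8-fold higher, with levels of 3.95, 3.95 and 3.85 against 0.59, 0.57 and 0.30, and Bcl2 was 2.49-fold lower. Of 28 p53 targets, 15 were lower at oxygen 1 and 3 higher, with a median of -0.52. Plk3, a stress kinase, was 4.39-fold lower and Gdf15, a secreted stress cytokine, 3.80-fold lower, with levels of 2.52, 2.65 and 2.77 against 4.65, 4.50 and 4.56 and controls at 4.59.

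Inflammatory genes stood higher at oxygen 1 more often than lower. Of 27 cytokine and NF-kB feedback genes, 14 were higher and 4 lower, with a median of 0.61. Ptgs2, the inducible cyclooxygenase, was 4.80-fold higher, with levels of 1.27, 1.64 and 0.84 against -0.74, -1.13 and -1.17, and Il6 was 3.91-fold higher. Il15, a cytokine that supports lymphocytes, was 3.22-fold higher, whereas Il1rn, the antagonist of the interleukin-1 receptor, was 2.19-fold lower. Chemokine ligands were on both sides, with 9 of 26 genes of that list higher and 5 lower. Cxcl2, a neutrophil chemokine, was 4.58-fold higher at oxygen 1, against Ccl7 and Cxcl5 above. Of 27 interferon-stimulated genes 11 were higher and 1 lower (none lower without oxygen 1 replicate 1 or starved replicate 2), among them Gbp2 at 2.97-fold and Rsad2, an antiviral enzyme, at 2.63-fold.

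Genes by which macrophages sense and clear targets also differed. Of 20 genes of Toll-like receptor signalling, 8 were higher and 4 lower. The adaptor Ticam2 was 4.65-fold higher at oxygen 1 and the receptor Tlr2 2.12-fold lower. In MHC class II presentation 4 of 12 were higher and 4 lower, and the 4 lower were 1 without starved replicate 1 and 2 without oxygen 1 replicate 1 or 3. H2-Ab1, a class II beta chain, had levels of 3.19, 3.54 and 2.49 against -0.97, -0.98 and -0.91, a 16.3-fold difference (adjusted p = 1.12e-08), and Cd74, the invariant chain, was 2.71-fold higher. Of 21 genes for the engulfment of dying cells, 11 were lower at oxygen 1 and none higher, with a median of -0.46. Mertk, a receptor for dying cells, had levels of -2.72, -2.43 and -1.92 against -0.50, -0.75 and -0.81, a 3.19-fold difference, and Pros1, its bridging ligand, was 3.28-fold lower. Among alternative activation genes, 4 of 16 were higher and 5 lower, Arg1 and the lectin Clec10a (6.13-fold) on the higher side and Mrc1 on the lower.

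Matrix genes were called on both sides. Of 24 tested, 11 were higher and 6 lower. P4ha2, a collagen prolyl hydroxylase, had levels of 4.51, 4.65 and 4.37 against 0.70, 0.55 and 0.45, a 15.4-fold difference (adjusted p = 7.9e-11). Timp2, an inhibitor of metalloproteases, was 4.24-fold lower at oxygen 1. Sparc, a collagen-binding protein, was 5.61-fold higher, with levels of 2.13, 1.48 and 1.50 against -0.59, -0.83 and -0.94, and controls at 1.96. As for Ccn2, the oxygen 1 samples lay near the controls and the starved samples apart from them.

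Markers of stromal cells were called on both sides. Col1a1, a collagen chain of fibroblasts, had levels of 0.31, -0.04 and -0.29 at oxygen 1 and -3.36, -3.84 and -3.59 in starved cells, with controls at -0.16, a 12.1-fold difference, and Col1a2 was 4.09-fold higher at oxygen 1. Of 13 tested stromal and endothelial markers, 5 were higher and 3 lower (1 lower without starved replicate 1), among them Lum, a fibroblast proteoglycan, at 2.97-fold lower. Pdgfra and Tek were on the array but did not pass the filter for testing. The summed linear level of the list was 4.37 to 5.40 at oxygen 1, 3.17 to 5.34 in starved cells and 4.57 to 5.19 in controls. In bulk samples fewer cells of a type and less RNA per cell cannot be told apart, and the part of these cells in the differences of Ccn2, Sparc and Nid1 was not tested. Of mast cell, basophil and eosinophil markers, 3 of 7 tested genes were higher and 2 lower (1 lower without oxygen 1 replicate 3), with a summed level of 2.72 to 4.67 at oxygen 1, 0.856 to 1.08 in starved cells and 0.968 to 0.986 in controls. That sum included Ccr3, a chemokine receptor of eosinophils, which was 9.76-fold higher at oxygen 1. The defining genes Cpa3, Fcer1a, Mcpt8, Prg2 and Epx, and also Ms4a2, Mcpt4 and Gata2, were on the array but were not tested. They fell short of the filter, which asked for at least 3 of 18 samples well above background and at least 2 values in every group.

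The other marker lists gave small sums or calls on both sides. Neutrophil markers gave 5 of 12 higher (3 without oxygen 1 replicate 1) and 2 lower, with summed levels of 68.2 to 79.0 at oxygen 1 and 61.1 to 82.5 in starved cells. Lymphocyte markers gave 2 of 8 lower (1 without oxygen 1 replicate 1) and none higher, with sums of 7.24 to 7.79 and 8.82 to 10.4. Dendritic cell markers gave 1 of 6 higher (none without oxygen 1 replicate 1 or 2 or starved replicate 3) and 2 lower (0 or 1 without oxygen 1 replicate 1 or 2 or starved replicate 2), with sums of 141 to 152 and 140 to 144. Osteoclast markers gave 2 of 10 higher and 3 lower, with sums of 35.0 to 44.3 and 35.2 to 46.1; Itgb3, an integrin of osteoclasts, was 4.05-fold lower at oxygen 1. Erythroid and megakaryocyte markers gave 2 of 7 each way (0 or 1 higher without oxygen 1 replicate 1 or 3 or starved replicate 1 or 2), with sums of 16.4 to 34.1 and 12.8 to 16.0. Their sum in controls was 6.41 to 7.19, below both stressed groups. Control sums were 75.4 to 92.0 for neutrophil, 10.1 to 11.2 for lymphocyte, 125 to 148 for dendritic cell and 44.4 to 54.5 for osteoclast markers. The part of such cells in the differences was not tested.

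Clock and histone demethylase genes were more often higher at oxygen 1, and the other regulators were mixed or more often lower. Of 17 clock genes, 11 were higher and 1 lower (none lower without oxygen 1 replicate 1, 2 or 3 or starved replicate 2 or 3), with a median of 0.61; Ciart, a clock repressor, was 5.39-fold higher and Nfil3, a repressor of the clock output, 4.86-fold higher. Of 18 histone lysine demethylases, enzymes that need oxygen, 10 were higher and 1 lower (none lower without oxygen 1 replicate 2 or 3 or starved replicate 3). Kdm3a had levels of 3.67, 3.81 and 3.80 against 1.14, 1.13 and 1.31, a 5.91-fold difference (adjusted p = 5.49e-11), and Kdm6b was 5.43-fold higher. Of 23 immediate early genes, 9 were higher and 6 lower; Fos was 2.69-fold lower at oxygen 1 and Fosl2, of the same family, 2.39-fold higher. NRF2 targets, the oxidant defence genes, gave 2 of 28 higher and 5 lower, under the background, and the 5 were 0 to 3 without oxygen 1 replicate 1, 2 or 3 or starved replicate 1 or 2; Hmox1, the haem-degrading enzyme, was 1.98-fold higher. Iron genes gave 4 of 15 higher and 5 lower, and Hfe, a regulator of iron uptake, was 3.13-fold lower. Of 19 tRNA synthetases, 3 were higher and 8 lower, and the 3 were 1 without oxygen 1 replicate 1 or 3 or any starved replicate and 0 with the authors' series values; Farsb was 1.97-fold lower. Of 14 cyclin D and CDK inhibitor genes, 2 were higher and 6 lower, with 3 lower without starved replicate 3.

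**Figure D4:**
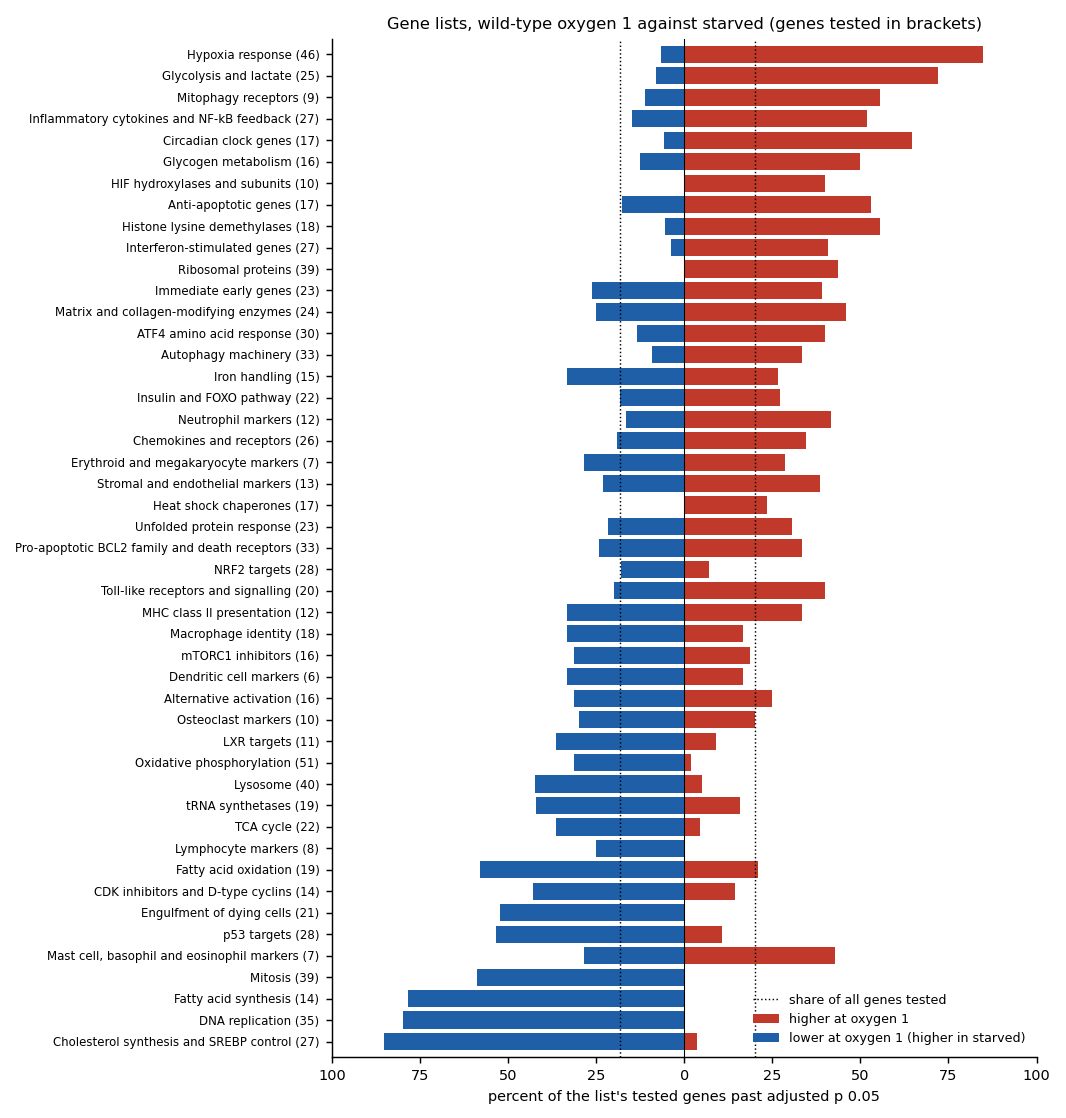
Percent of each list's tested genes past the threshold (x axis), to the right where higher at oxygen 1 and to the left where lower, with lists ordered by median difference and dotted lines at the shares of all genes tested (19.9% and 18.2%). The hypoxia response list (39 of 46 higher) and the cholesterol list (23 of 27 lower) stand at the ends.

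Some genes had measured control levels between those of the stresses. By largest difference these were Rcor2, Apln, Foxj1, Tubb3, Colgalt2 and Nid1 among genes higher at oxygen 1, and Scd1, Psrc1, Map1a, Ccl7, Kcnj10 and Elovl6 among genes lower. Only the higher stressed group had to be well above background. No starved sample was for Apln, Foxj1, Colgalt2 and Nid1, and no oxygen 1 sample for Scd1, Map1a and Kcnj10. For these genes the order of the dim group and the controls rests on signal near background. Tubb3, a tubulin, had levels of -0.80, -0.16 and -0.68 at oxygen 1 and -6.23, -6.09 and -5.48 in starved cells, with controls at -4.51, a 41.9-fold difference. Colgalt2, which adds galactose to collagen, was at least 18.8-fold higher and Nid1, a basement membrane protein, at least 7.34-fold. Nid1 had levels of -3.39, -3.62 and -3.64 against -8.46, -8.14 and -8.27, with controls at -4.80, and with normexp background correction differed by 0.72 and was not called (adjusted p = 0.223). For Ccl7 the controls were at 3.28, between 1.46 to 1.94 at oxygen 1 and 5.05 to 5.28 in starved cells.

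Other genes lay far from the controls in both stresses and close to each other. Pappa2, a protease that frees insulin-like growth factors, had levels of -2.80, -2.67 and -2.80 at oxygen 1 and -2.60, -2.86 and -3.02 in starved cells, beside controls at -5.89, and the difference was 0.07 ± 0.16. Htr2b, a serotonin receptor, differed by -0.01 ± 0.19, with controls at -4.08 and all 6 stressed samples between -1.53 and -0.72. Bhlhe41, a transcriptional repressor, Pabpc1l, Dusp13 and Rassf8 had the same form, with differences of -0.09, -0.06, -0.08 and 0.04. Below controls, Fgl2, a secreted immune regulator, had levels of 1.44, 0.91 and 1.39 against 0.82, 1.57 and 1.11, with controls at 3.33. Adgre5, the adhesion receptor CD97, lay between 3.28 and 3.74 in all 6 samples with controls at 4.79. Aspm and Cdkn3, of the cell cycle, Fam83d and Loxl3 differed between the stresses by -0.08, -0.01, 0.02 and -0.07. These genes were picked for a 95% interval within 0.5 log2 units of 0, so the closeness is a description.

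The same contrast in PHD3 knockout cells did not differ detectably from that in wild type. The difference between genotypes was called for 0 of 20812 genes (0%) by limma, with 260 at an unadjusted p under 0.05 and a smallest adjusted p of 1. In the knockout, where no sample is shared with the wild-type contrast, 7682 genes were called, and 6465 of the 7936 wild-type calls were also called there in the same direction. Across genes, which are not independent replicates, the differences correlated at r = 0.919. Mgarp differed by 8.76 in the knockout and 8.87 in wild type, Rcor2 by 5.82 and 6.01, and Ccl7 by -3.09 and -3.36. Egln3 itself was 5.26 in the knockout and 5.20 in wild type, with its 2 probes between 5.11 and 5.20 in wild type. The probes' place on the gene is not given here, so this value says nothing of the knockout. The hypoxia list gave 38 higher and 2 lower in the knockout and the cholesterol list 1 higher and 23 lower. The median half-width of the 95% interval was 0.495 log2 units for the difference between genotypes and 0.35 for the wild-type contrast. In simulated data for the wild-type contrast, limma recovered 71% of 2-fold changes and 96% of 4-fold changes. The simulation changed only 200 genes, far fewer than the 7936 called here, so these shares need not hold for the real data. The genotype difference was not simulated. In the knockout, samples of the same number deviated together (r = 0.154, 0.177 and 0.161), and with the replicate number as a replicate block 7768 genes were called in the knockout over all 18 samples and 6945 over its 6 samples.

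**Figure D5:**
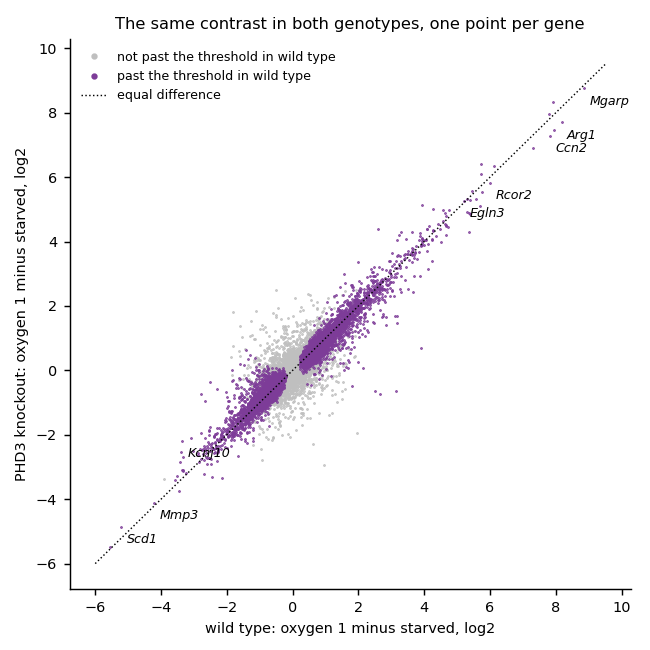
Difference between oxygen 1 and starved in wild type (x axis, log2) and in PHD3 knockout (y axis, log2), 1 point per gene for 20812 genes, with the line of equal difference dotted and genes called in wild type coloured. The called genes lie along the line, from Mmp3 (-4.20 and -4.11) toward Mgarp (8.87 and 8.76), and dim genes such as Scd1 and Ccn2 are drawn at their fitted differences, which are no bounds.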

How the data were processed

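Expression was measured in 18 samples on 20 arrays of 5 slides. Per the file headers, the deposited intensity of each spot was background-subtracted and detrended within the array (Agilent Feature Extraction 10.7.3.1), and arrays were not normalized to each other. Values in the authors' series table are log2, and the submitters' processing notes name limma without a version. Values here were log2 intensity minus the 75th percentile of each array. Spots with outlier flags were left out (0.111% of values missing), and 2 knockout samples on 2 arrays each were averaged. Probes were named through RefSeq accessions (26055 of 39429), each gene was read from its brightest probe, and a gene was tested when well above background in at least 3 of 18 samples with at least 2 values in every group. Group means of all 6 groups entered limma 3.58.1 (R 4.3.3) (12 residual and 2.49 prior degrees of freedom), with two-sided moderated tests and Benjamini-Hochberg adjustment over 20812 genes. "At least" marks a bound, for genes dim in all lower samples: the higher group's mean over the lowest signal well above background on the other group's arrays, or the probe's own where higher. The fit was tested on simulated data with 200 changed genes, where it made 8 false calls.

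The members and the gene lists were chosen with earlier results of these data known. Named genes were the 12 largest differences each way, up to 4 members of each list by adjusted p plus exceptions to its median, the HIF genes, the 6 largest each way with controls between, and 6 each way alike in both stresses and apart from controls; predicted and clone names were passed over. Hmgcs1, Adgre1 and the motif TCACNCCAC were added after values were seen. The files hold median but not mean spot signals, so normexp used the medians. Slides were shared by both groups in 1 case, oxygen 1 replicate 2 and starved replicate 1. Wild-type starved samples 1, 2 and 3 lay on slides 2, 5 and 4, as did wild-type controls 1, 2 and 3. The wild-type oxygen 1 samples lay on slides 3, 2 and 1, and so shared only slide 2 with the controls. Same-numbered wild-type oxygen 1 and starved samples did not deviate together (r = 0.055, -0.032 and 0.032), while those of the knockout did (r = 0.154, 0.177 and 0.161); the block fits of the knockout were added after seeing the data.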

Additional observations from a re-analysis of the deposited data

How the results depend on the processing

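Over 20812 genes, 7936 were called (4149 higher and 3787 lower at oxygen 1). Normexp background correction with 75th percentile scaling gave 4030 (1854 higher and 2176 lower), of which 3969 were called in the same direction in both. It also moved the median difference over all genes from 0.004 to -0.224, and no filter on dim probes moved it to 0.164. Normexp used median spot signals. A fit with the replicate number as a replicate block over the 6 samples gave 3872 (2161 higher and 1711 lower). In wild type, oxygen 1 and starved samples of the same number did not deviate together (r = 0.055, -0.032 and 0.032). Same-numbered pairs with controls were uneven, at 0.217, -0.075 and 0.287 for oxygen 1 and 0.092, 0.225 and 0.002 for starved samples. A replicate block over all 18 samples gave 8007. At least 2-fold, 2327 were called. Leaving out 1 replicate gave 6256 to 8309 calls in all, 3311 to 4061 higher and 2882 to 4248 lower. The other alternatives stayed within 1.5 times the count. The genotype difference was called for 0 genes under every alternative run, the replicate block included. The share of calls higher at oxygen 1 was 52.3%, 46.0% to 55.8% over alternatives at the same threshold, and 60.4% among calls of at least 2-fold. On the slide with both groups, 7904 of 7923 called genes kept their sign. The samples on it are among the 6 that gave the calls, and only called genes were counted. This agreement was therefore largely fixed beforehand and is no independent check. Among genes named here, Sfrp4 turned to -0.20 under normexp with 75th percentile scaling; the cause was not tested. The replicate block over the 6 samples left no oxidative phosphorylation or ribosomal protein gene called. Signals near background limit dim genes, for which bounds are given.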

Other observations

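A set of 22 genes driven by the factors SRF and YAP, which respond to growth factors in serum and to cell tension, was assembled after the values of Ccn2 had been seen, so its counts are a description. Of 21 tested, 9 were higher at oxygen 1 and 5 lower (3 without starved replicate 1 or 2), with a median difference of -0.03. Genes of contraction were called on both sides. Myl9, a myosin light chain, had levels of -1.01, -2.38 and -1.43 at oxygen 1 and -4.58, -4.59 and -5.37 in starved cells, with controls at -0.20, and was 9.46-fold higher at oxygen 1, with a difference of 3.24 that was 1.43 with normexp. Acta2, smooth muscle actin, was 2.99-fold higher, with levels of -0.25, -0.34 and -0.75 against -1.93, -2.18 and -1.98 and controls at 0.00. Cnn1, a calponin, was at least 2.81-fold higher, but differed by 0.05 with normexp background correction (adjusted p = 0.93) and lost its call with a replicate block over the 6 samples (adjusted p = 0.0545). Srf itself differed by -0.16 ± 0.13 (adjusted p = 0.378), and Tpm1, Actn1 and Cnn2 were 1.66-fold, 1.59-fold and 1.58-fold lower at oxygen 1.

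Among the 7936 genes called in wild type, 41 had a knockout difference of the opposite sign, 16 of them among calls of at least 2-fold. Sfrp4, a secreted Wnt antagonist, differed by 1.82 in wild type and -0.50 in the knockout, and was well above background in 2 oxygen 1 and 0 starved wild-type samples. Its wild-type call was lost without oxygen 1 replicate 1 or 2 or starved replicate 1 or 3. Pde3a, a phosphodiesterase, differed by -1.30 and 0.48, and its wild-type call was lost without oxygen 1 replicate 1 or starved replicate 3. The genotype difference of both genes was not called (adjusted p = 1), and they were chosen after their values were seen.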
